A study of Mus musculus with 6 samples.

Results

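To see how the acute phase plasma proteins of the liver behave when human SRY is active outside the testis, their transcripts were followed in male mouse pups (FVB in the labels, FVB/N per the study's methods) of postnatal day 6 (P6), 3 of them hSRY-ON and 3 hSRY-OFF, with 1 bead array per liver. The genes were *Saa1*, *Saa2*, *Saa4*, *Orm1*, *Orm2*, *Crp*, *Apcs*, *Hp*, *Hpx* and *Itih4*, chosen by name from the proteins that hepatocytes secrete in the acute phase response, and every probe carrying such a symbol was taken, which gave 10 of the 18138 gene symbols and 15 of the 25697 probes on the array. In hSRY-ON pups a FLAG-tagged human SRY gene had been placed behind the ubiquitous CAG promoter. It was linked to EGFP through an IRES and carried in the Signalox-hSRY cassette as a single copy in the H11 locus. Per the study, Cre protein that Ddx4-Cre mothers left in the oocyte recombined the cassette in the fertilised egg, and thus not in hepatocytes alone. In liver the study reports SRY protein in hepatocyte nuclei, and which other liver cells expressed it was not tested here. The methods state that hSRY-ON animals used for the arrays were chosen to lack the Ddx4-Cre transgene themselves. In hSRY-OFF pups, per the study's methods, the cassette was present without recombination, and DsRed2 rather than SRY stood behind the CAG promoter. Elsewhere the study also names littermates with Ddx4-Cre alone or without any transgene as controls, and the labels do not say which of these genotypes each hSRY-OFF liver had. The array has no probe named for the human gene, and activation was therefore not checked here. Per the study, hSRY-ON pups grew more slowly than controls, suckled little and had fatty livers, and some had died by P6. Feeding, illness and survival up to sampling therefore cannot be told apart from SRY activity in the differences that follow. Litters were not given, and p-values therefore set the group difference only against the spread between livers. Whether litters were spread evenly over the groups could not be checked.

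The acute phase response is the change in liver secretion that follows injury or infection. Interleukin-6 and related cytokines signal through the shared receptor chain gp130 and the transcription factor STAT3, interleukin-1 and tumour necrosis factor signal through NF-kB, and C/EBP factors and glucocorticoids act with them on the promoters of the plasma protein genes. In the mouse, serum amyloid A1 and A2 and the orosomucoids are strong responders, serum amyloid P component (*Apcs*) is the pentraxin that responds most, and C-reactive protein (*Crp*) changes little. Haptoglobin and hemopexin bind free haemoglobin and haem and are made in quantity also at rest.

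The data show a divided pattern within this family. *Orm1*, an orosomucoid, was higher in hSRY-ON livers by 9.54-fold. *Orm2* was higher by at least 5.88-fold between group means with the main background correction, but its adjusted p of 0.0486 was near the threshold. The call was lost in 8 of 15 alternatives, with a difference of 1.59 (adjusted p 0.111) with no background correction. These alternatives include settings chosen after seeing the data. In the planned ones the probe could not be tested once an hSRY-ON array was left out. *Saa4*, the constitutive serum amyloid A, was 7.32-fold lower, and *Itih4*, an inter-alpha inhibitor heavy chain of the acute phase, was lower by 1.40-fold to 1.75-fold with its 3 probes. *Crp*, *Apcs*, haptoglobin and hemopexin did not pass the test, and *Saa1* and *Saa2* were too dim to pass the detection filter. Of the 13 member probes that were tested, from 8 genes, 2 were higher and 4 were lower at an adjusted p under 0.05 (46.2% called). Among all 10734 tested probes 15.8% were higher, 17.3% were lower and 33.1% were called in either direction, so a large share of the liver transcriptome differed and the count of 6 among 13 is to be read against that share. At 7 of the 13 probes the normalised values of the groups did not overlap, against 49.96% of all tested probes. The median difference was -0.02 over the tested member probes and 0.02 over all tested probes, and the median size of a difference was 0.24 and 0.34. All differences are hSRY-ON minus hSRY-OFF on the log2 scale, after background correction with an offset of 16. Differences of dim probes depended on this correction, as that of *Saa4* was -2.87 with it and -1.71 without. That of *Orm2* was 2.89 with it and 1.59 without.

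**Figure D1:**
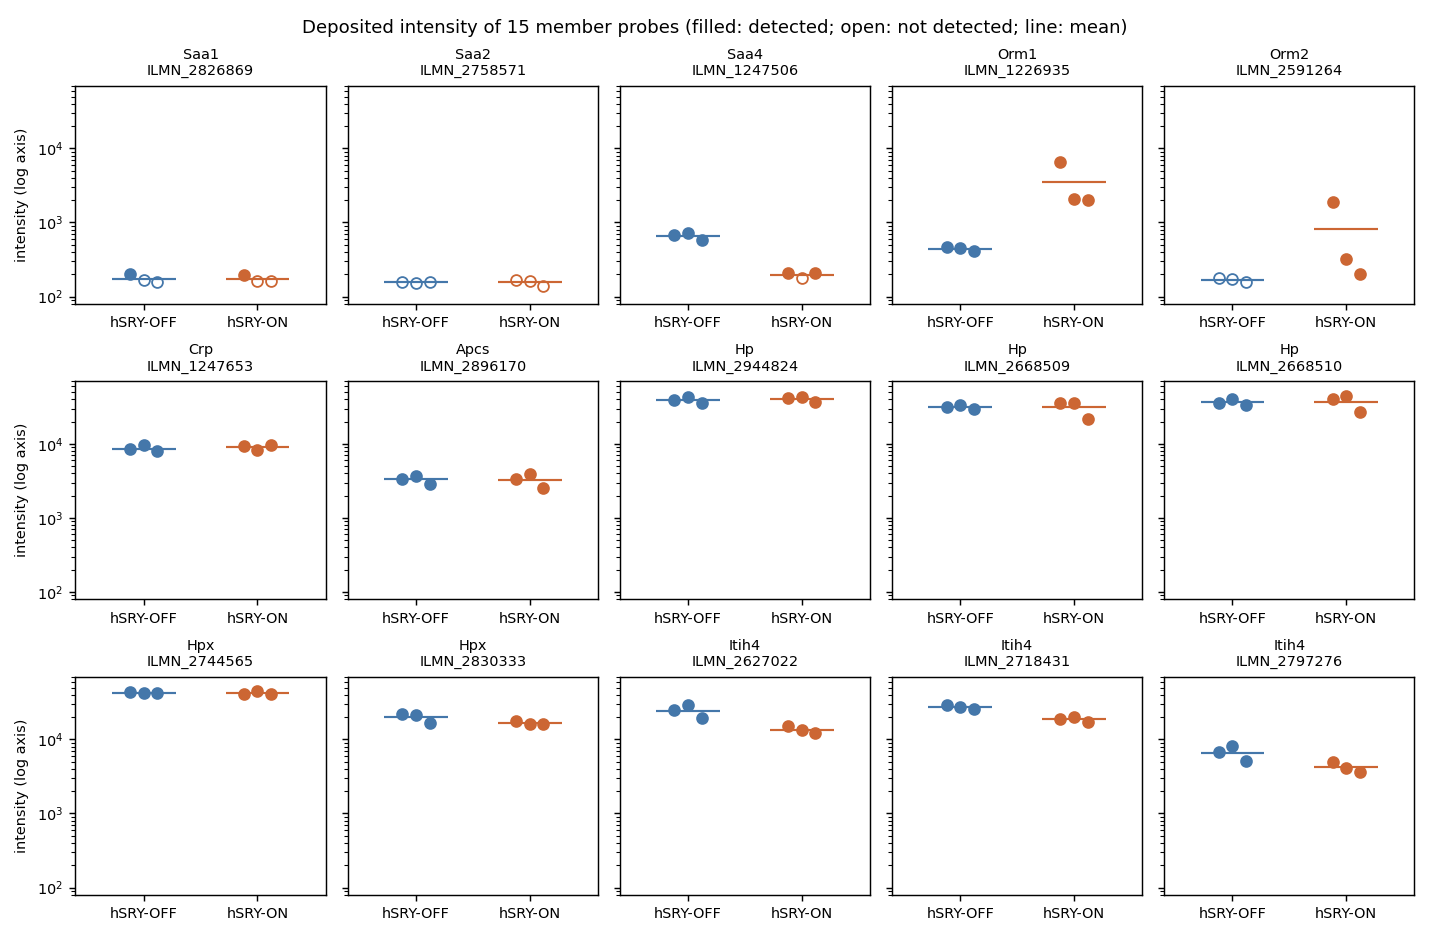
Deposited, unnormalised intensity (log axis) of the 15 member probes on each of the 6 arrays, 1 panel per probe, with hSRY-OFF in blue and hSRY-ON in orange; filled points were detected at a detection p under 0.01, open points were not, and lines mark the group means. *Orm1* and *Orm2* lay higher on all 3 hSRY-ON arrays, with replicate 1 at 6559 and 1900, whereas *Saa4* fell to between 175 and 210, and the *Hp* and *Hpx* panels stayed near the top of the scale.

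The promoters of the genes that moved are shown first, because the factors named above act there. RefSeq promoter entries (build GRCm38.p6, from 250 bases before to 50 bases after the start, read on the strand of the gene) matched 8 of the 10 genes, all but *Orm1* and *Hp*. The lines give *Orm2*, which was higher, and *Saa4* and *Itih4*, which were lower, at chr4:63362199-63362498 on the plus strand, chr7:46732554-46732853 on the minus strand and chr14:30886226-30886525 on the plus strand. Capitals mark matches to the motifs searched.
Orm2: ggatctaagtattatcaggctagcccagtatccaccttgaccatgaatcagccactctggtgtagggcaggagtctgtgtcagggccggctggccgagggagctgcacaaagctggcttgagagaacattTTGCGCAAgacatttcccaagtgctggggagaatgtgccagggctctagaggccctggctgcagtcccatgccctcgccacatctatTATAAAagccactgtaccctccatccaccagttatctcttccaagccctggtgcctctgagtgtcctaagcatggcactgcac
Saa4: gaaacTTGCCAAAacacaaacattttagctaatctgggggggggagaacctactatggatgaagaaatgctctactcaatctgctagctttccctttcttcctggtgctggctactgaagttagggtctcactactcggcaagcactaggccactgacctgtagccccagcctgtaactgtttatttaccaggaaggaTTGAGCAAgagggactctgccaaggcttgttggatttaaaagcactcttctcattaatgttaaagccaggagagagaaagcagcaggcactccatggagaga
Itih4: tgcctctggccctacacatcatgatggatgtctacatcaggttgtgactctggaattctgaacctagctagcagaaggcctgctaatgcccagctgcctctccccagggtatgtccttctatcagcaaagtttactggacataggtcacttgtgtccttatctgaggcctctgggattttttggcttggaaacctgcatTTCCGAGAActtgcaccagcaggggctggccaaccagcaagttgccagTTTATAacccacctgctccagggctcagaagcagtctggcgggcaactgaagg

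The motifs were TTGCNNAA for C/EBP, TTCNNNGAA for STAT, GGGNNNTCC as a short NF-kB-like pattern, ACANNNTGT for the glucocorticoid receptor and TATAAA for the TATA box, each on both strands. No matches overlapped one another in the 3 promoters shown. The C/EBP motif was found in 5 of the 8 member promoters, against 10.8% of all 32851 promoters of that length. The near-identical *Saa1* and *Saa2* are among the 5 and hold the same match, TTGCACAA. Enrichment was not tested. In *Orm2* it was TTGCGCAA at positions -120 to -113 before the start, and a TATAAA stood at positions -33 to -28. *Saa4* held TTGCCAAA at -245 to -238 and TTGAGCAA, the motif on the other strand, at -52 to -45. The STAT motif was found in 2 promoters, *Itih4* (TTCCGAGAA at -51 to -43) and *Apcs*, against 8.3% of all. The GGGNNNTCC and glucocorticoid receptor patterns had 0 matches in the 8 windows, against 17.8% and 6.85% of all promoters. GGGNNNTCC is shorter than the usual NF-kB site and misses many such sites, so their absence was not shown. TATAAA was found in 3 against 13.6%, and in *Itih4* the match was TTTATA, the motif on the other strand, across the start at -3 to 2. The motif matches are descriptions of letters, and binding was not measured. *Saa1* and *Saa2* were near copies of each other in this window, with 287 of 301 aligned positions identical (95.3%), while *Saa1* and *Saa4* shared 50.9%.

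The orosomucoids were considered first among the members. Orosomucoid, or alpha-1-acid glycoprotein, is a heavily glycosylated carrier of basic drugs and lipids in plasma. The *Orm1* probe (ILMN_1226935) had intensities of 462, 452 and 414 on the hSRY-OFF arrays and of 6559, 2051 and 2020 on the hSRY-ON arrays. Every hSRY-ON liver was thus above every hSRY-OFF liver, and hSRY-ON replicate 1 stood well above the other hSRY-ON livers. After normalisation the log2 intensity averaged 8.31 ± 0.17 for the hSRY-OFF group and 11.56 ± 0.91 for the hSRY-ON group (SD, n = 3 each). The difference was 3.25 ± 0.41 (SE, 95% interval 2.30 to 4.21, limma adjusted p 0.00145). The 3 hSRY-ON livers exceeded the hSRY-OFF mean by 4.30, 2.67 and 2.80, and without replicate 1 the difference was 2.75 (adjusted p 0.000796). In whole liver RNA, more cells that express a gene and more RNA per cell cannot be told apart, here or for the genes that follow.

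The *Orm2* probe (ILMN_2591264) was detected on 0 of 3 hSRY-OFF arrays and on all 3 hSRY-ON arrays. Its intensities were 179, 172 and 155 in hSRY-OFF livers and 1900, 318 and 200 in hSRY-ON livers, so the groups did not overlap but hSRY-ON replicate 3 lay only slightly above the controls. The fitted difference was 2.89 ± 0.93 (SE, 95% interval 0.72 to 5.05), and the adjusted p of 0.0486 was just inside the threshold. Because no hSRY-OFF array detected the probe, the fold between group means is given as a bound, at least 5.88-fold with the main background correction. This bound does not cover the spread between livers or the other settings, where the difference was as low as 1.59. The hSRY-ON livers exceeded the hSRY-OFF mean by 5.29, 2.26 and 1.11, and the order of replicate 1 above the other livers was as for *Orm1*. Leaving out any hSRY-OFF array removed the call (adjusted p 0.111 to 0.128), and so did no background correction, normexp without detection p-values, nec with an offset of 50 and no filter (0.0621 to 0.111). When an hSRY-ON array was left out the probe was detected on too few arrays to be tested. With detection on 2 arrays admitted, a setting chosen after seeing the data, the difference was 1.67 without replicate 1 (adjusted p 0.0179), 3.21 without replicate 2 (0.0637) and 3.79 without replicate 3 (0.0113). Over its 15 alternatives, these later settings included, the adjusted p ranged from 0.00413 to 0.128. The orosomucoid genes are close paralogs, and the table gives no probe sequences, so reads of *Orm1* RNA by the *Orm2* probe were not tested. *Orm3*, the remaining gene of this family, was detected on 0 arrays.

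Among the serum amyloid A genes, *Saa4* is expressed constitutively and its protein is carried by high density lipoprotein. The *Saa4* probe (ILMN_1247506) had intensities of 682, 717 and 575 in hSRY-OFF livers and 210, 175 and 208 in hSRY-ON livers. The groups were far apart, and the hSRY-ON values were close to background, with detection on 2 of 3 arrays. The log2 intensity went from 9.04 ± 0.07 to 6.17 ± 0.47 (SD, n = 3 each), a difference of -2.87 ± 0.23 (SE, 95% interval -3.41 to -2.34, adjusted p 0.000267), or -2.86 with the undetected array at its detection floor. With no background correction the difference was -1.71 (adjusted p 6.46e-05), and the call held in all 15 alternatives run for this probe.

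*Saa1* and *Saa2* encode the acute phase serum amyloid A proteins. The *Saa1* probe (ILMN_2826869) had intensities of 200, 167 and 155 in hSRY-OFF and of 192, 163 and 160 in hSRY-ON livers, and was detected on 1 array of each group. The *Saa2* probe (ILMN_2758571) had 156, 153 and 156 against 165, 164 and 137 and was detected on 0 arrays. The groups overlapped at both probes. Neither probe passed the detection filter, so no difference was tested in the main setting, and a level below detection on these arrays was not measurable in either group. With no filter both differed by 0.04 and were not called (adjusted p 0.952 and 0.945), and *Saa1*, tested also at a detection p under 0.05, then had an adjusted p of 0.912. RefSeq lists each of the 2 symbols as an older name of the other gene, so which of the near-identical genes a probe reads is uncertain.

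The genes around *Saa4* were looked at as well. *Saa3*, a serum amyloid A that is also made by macrophages and adipose tissue, is a neighbour within 100 kb of all 3 Saa members and was lower too, from 403, 430 and 289 to 274, 224 and 198, with no overlap (difference -1.17 ± 0.17, SE, adjusted p 0.00296, and -0.65 with no background correction). Within 100 kb of any member, RefSeq placed 34 other genes. Of these, 31 had probes, and of 35 tested probes 4 were higher and 9 were lower, against 33.1% called among all tested probes. *Tph1*, the tryptophan hydroxylase gene next to the Saa cluster, went the other way. This gene was singled out after its values were seen. It was detected on 0 hSRY-OFF arrays (intensities 132, 141 and 126) and on all hSRY-ON arrays (293, 436 and 227), at least 3.34-fold higher (adjusted p 0.000968).

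The pentraxins bind phosphocholine, chromatin and amyloid fibrils and activate complement. The *Crp* probe (ILMN_1247653) had intensities of 8518, 9531 and 7900 in hSRY-OFF and 9409, 8380 and 9750 in hSRY-ON livers, which overlapped. After normalisation the hSRY-ON values, from 13.07 to 13.46, lay just above the hSRY-OFF values, from 12.88 to 13.05. The difference of 0.23 ± 0.14 (SE, 95% interval -0.11 to 0.57) did not pass the test (adjusted p 0.25). The *Apcs* probe (ILMN_2896170) had intensities of 3327, 3688 and 2914 against 3315, 3863 and 2500, with overlap. Its difference of 0.07 (95% interval -0.31 to 0.45, adjusted p 0.767) was within the spread between livers, and became -0.07 with median scaling and -0.08 without hSRY-ON replicate 2.

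Haptoglobin binds haemoglobin released from red cells, and hemopexin binds haem. The 3 *Hp* probes had differences of -0.02 (ILMN_2944824, 95% interval -0.28 to 0.25, adjusted p 0.927), -0.05 (ILMN_2668509, -0.45 to 0.35, 0.846) and 0.00 (ILMN_2668510, -0.36 to 0.37, 0.991). The first of these probes had intensities of 39365, 42736 and 35959 in hSRY-OFF and 40982, 43345 and 36479 in hSRY-ON livers, with full overlap. In the probe ILMN_2668509 hSRY-ON replicate 3 was the lowest of all livers at 21990, against 35549 and 36156 in the other hSRY-ON livers. ILMN_2668510 was likewise lowest in that liver, at 26766. Without it the difference of ILMN_2668509 was 0.12 (adjusted p 0.412).

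For hemopexin, the probe ILMN_2744565 had a difference of 0.00 (95% interval -0.25 to 0.25, adjusted p 1). Its intensities were 43238, 41987 and 42868 in hSRY-OFF and 40848, 44541 and 41421 in hSRY-ON livers. The second probe, ILMN_2830333, was dimmer, with 22349, 21500 and 16757 against 17464, 16151 and 16348, and its difference of -0.24 (95% interval -0.54 to 0.06, adjusted p 0.189) did not pass the test. The probes ILMN_2944824 of *Hp* and ILMN_2744565 of *Hpx* lay at 76.8% to 92.6% and at 87.8% to 95.2% of the highest intensity on their arrays. How far the upper end of the scale compresses differences there was not tested.

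The rule for genes with a similar pattern was applied to the brightest *Hp* probe, ILMN_2944824. The 5 tested probes most like it over the 6 arrays were those of *Ccnq*, *Zcchc14*, *Rad51d*, *Prr14l* and *Icmt*, with Pearson correlations from 0.964 to 0.987. These are the highest among all tested probes over only 6 livers, and the differences of these 5 genes between groups lay between -0.11 and -0.01. No *Saa1* or *Saa2* probe was tested, so the rule gave no genes for them.

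*Itih4* is an inter-alpha inhibitor heavy chain that, unlike its relatives, is not joined to bikunin. The probe ILMN_2627022 had intensities of 24789, 29030 and 19704 in hSRY-OFF and of 15270, 13255 and 12146 in hSRY-ON livers. The probe ILMN_2718431 had 28676, 27589 and 25961 against 18628, 19960 and 17305. The probe ILMN_2797276 had 6657, 8053 and 5140 against 5017, 4136 and 3593. Each probe was lower on every hSRY-ON array than on every hSRY-OFF array. The differences were -0.81 ± 0.14 (SE, adjusted p 0.00508), -0.56 ± 0.11 (0.00882) and -0.48 ± 0.13 (0.0297). The first and second calls held in all 15 alternatives. The third was lost without hSRY-OFF replicate 1 or 2 or hSRY-ON replicate 2 or 3 (adjusted p 0.0524 to 0.106), within a range of 0.0124 to 0.106.

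**Figure D2:**
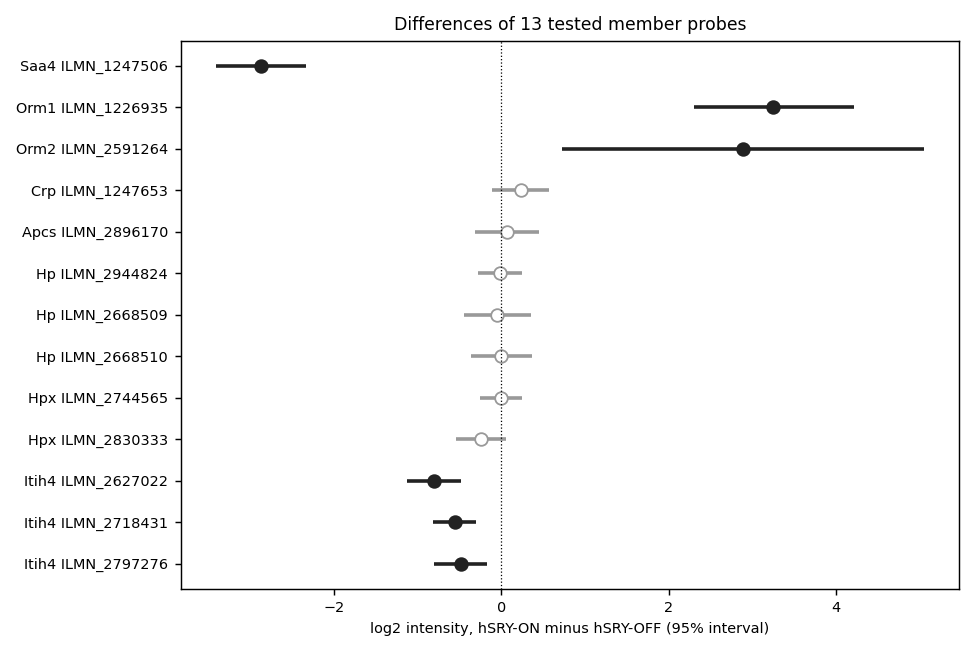
Difference in log2 intensity, hSRY-ON minus hSRY-OFF, with its 95% interval (horizontal lines), for the 13 tested member probes; filled points passed an adjusted p under 0.05. *Orm1* (3.25) and *Orm2* (2.89) lie to the right, *Orm2* with the widest interval, *Saa4* (-2.87) to the left and the *Itih4* probes between -0.81 and -0.48, while the other 7 intervals hold 0.

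**Figure D3:**
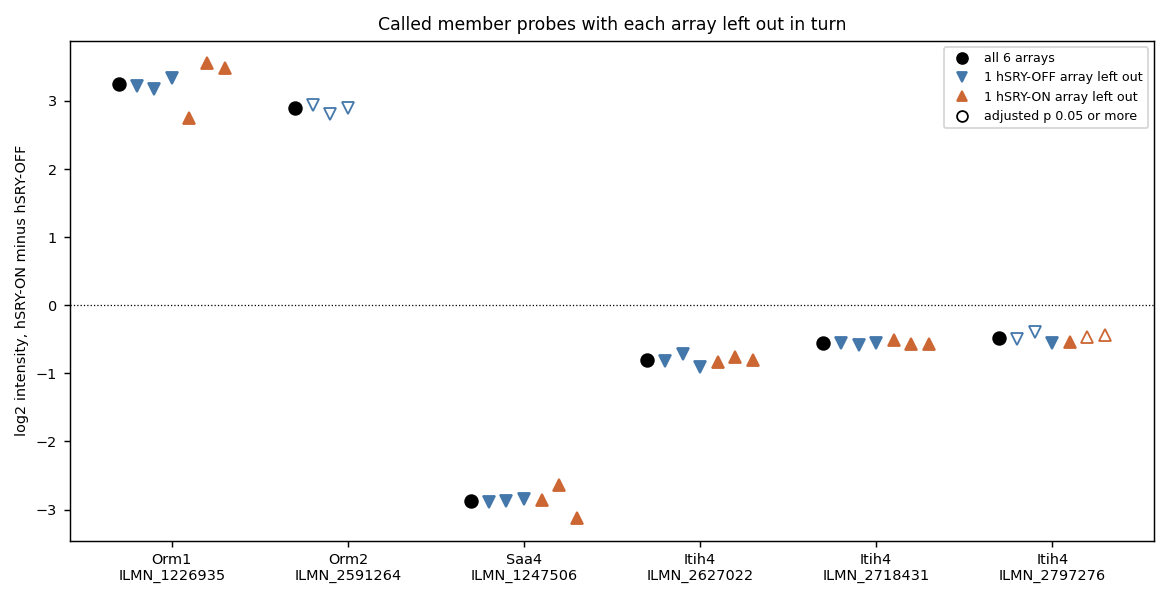
Difference in log2 intensity (y axis) of the 6 called member probes with all 6 arrays (black) and with 1 hSRY-OFF array (blue) or 1 hSRY-ON array (orange) left out; open symbols did not pass the threshold. *Orm1*, *Saa4* and the first 2 *Itih4* probes kept their call throughout, and *Orm2*, which could not be tested without an hSRY-ON array, lost it with each hSRY-OFF array left out.

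The inter-alpha inhibitor family was compared with *Itih4*. *Itih1* and *Itih2*, heavy chains joined to bikunin through its chondroitin sulfate chain, were lower as well. *Itih1* went from 9621, 11010 and 8628 to 2743, 2566 and 3700 (difference -1.63 ± 0.22, SE, adjusted p 0.00196) and *Itih2* from 692, 695 and 565 to 285, 297 and 337 (difference -1.50 ± 0.21, SE, adjusted p 0.00232). *Itih3* differed by -0.08 (adjusted p 0.632) and *Ambp*, which encodes bikunin together with alpha-1-microglobulin, by -0.02 (adjusted p 0.921). Of the 4 tested probes of this list 2 were lower and 0 were higher, with a median difference of -0.79. That is 50% called, against 33.1% of all tested probes.

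Of the 11 probes for the cytokines that start the response, from 8 genes, 6 were detected on no array. The 4 that were tested gave 1 higher and 1 lower (50% called, against 33.1% of all tested probes). *Il6* was detected on 0 arrays, *Tnf* on 1 hSRY-OFF array and *Il1b* on all 6, with overlapping intensities of 227, 519 and 246 against 345, 538 and 203 (difference 0.23, adjusted p 0.809). *Osm*, encoding oncostatin M, was higher with the probe ILMN_2919411, from 211, 188 and 183 to 347, 275 and 262 (difference 1.36 ± 0.19, SE, adjusted p 0.00218, and 0.62 with no background correction), while its other probe was detected on 0 arrays. *Ctf1*, encoding cardiotrophin-1, was lower by -1.16 ± 0.14 (SE, adjusted p 0.00116, and -0.77 with no background correction).

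At the receptors 11 probes were tested, and 1 was higher and 4 were lower (45.5% called, against 33.1% of all tested probes). *Osmr*, the oncostatin M receptor, rose by 1.21 ± 0.24 (SE, adjusted p 0.00873), from intensities of 227, 222 and 177 to 379, 333 and 231 without overlap, and by 0.60 with no background correction. *Il1rap*, the accessory protein without which the interleukin-1 receptor does not signal, was lower with 3 probes, by -2.21, -2.07 and -1.95. Its probe ILMN_2740465 went from 2510, 3018 and 2049 to 617, 685 and 555 (adjusted p 0.000151). *Il11ra1* was lower by -0.67 ± 0.11 (SE, adjusted p 0.00472), and *Il6ra* differed by 0.06 (adjusted p 0.889).

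Among signal transducers and transcription factors, 4 of 15 tested probes were higher and 3 were lower (46.7% called, against 33.1% of all tested probes). *Cebpb*, the C/EBP factor that is induced in the acute phase, rose by 1.39 ± 0.20 (SE, adjusted p 0.00266), from 2703, 3095 and 1646 to 6376, 6675 and 4037. *Cebpa*, the C/EBP factor of the resting hepatocyte, was lower by -1.66 ± 0.27 (SE, adjusted p 0.00392), from 999, 1055 and 847 to 497, 454 and 265. Neither gene's groups overlapped. *Rela*, an NF-kB subunit, was higher by 0.66 ± 0.12 (SE, adjusted p 0.00563). The 3 *Stat3* probes differed by 0.06 to 0.30 and were not called in the main setting (adjusted p 0.323 to 0.859). The *Stat3* probe ILMN_2698046 was called in 1 of 15 alternatives (adjusted p 0.0499). *Jak2* was higher with 1 of its 2 tested probes by 0.51 (adjusted p 0.0229), a call lost with median scaling and without hSRY-OFF replicate 1 or 3 or hSRY-ON replicate 1 or 2 (adjusted p 0.0517 to 0.0852). Of this list 2 probes were higher with median scaling and without hSRY-OFF replicate 1 or 3 or hSRY-ON replicate 1 or 2, and 1 was lower with no filter and without hSRY-OFF replicate 1 or 2 or hSRY-ON replicate 2 or 3. *Cebpd* had no probe under its name.

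The inhibitors of the pathway included *Socs3*, which the STAT3 pathway induces and which blocks gp130. *Socs3* rose by 1.35 ± 0.19 (SE, adjusted p 0.00253), from 269, 230 and 226 to 403, 427 and 401, and by 0.79 with no background correction. *Nfkbia*, the NF-kB inhibitor that NF-kB itself induces, rose by 1.25 ± 0.27 (SE, adjusted p 0.0119), with hSRY-ON replicate 3 lowest of its group at 670 against 1238 and 1480. *Sigirr*, an inhibitory receptor of the interleukin-1 family, was lower by -1.70 ± 0.21 (SE, adjusted p 0.00131). Of the 7 tested probes 2 were higher, 1 was lower and the median difference was 0.80 (42.9% called, against 33.1% of all tested probes).

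Of 19 tested probes of other positive acute phase proteins, 4 were higher, 2 were lower and 13 were not called, with a median difference of 0.07. The called share of 31.6% was near the 33.1% of all tested probes. *Lrg1*, a leucine-rich glycoprotein of plasma, went from 3927, 4452 and 2587 to 12141, 6842 and 4570 (difference 1.19 ± 0.28, SE, adjusted p 0.0158), and as for the orosomucoids hSRY-ON replicate 1 was highest. *Serpina3m* was higher by 1.10 (adjusted p 0.02). The other 2 probes called higher were those of *Mt2* (1.04, adjusted p 0.0359) and *Hamp* (1.83 with the undetected hSRY-OFF array at its floor, adjusted p 0.0432, with overlapping groups), named to complete the count. The *Lrg1* and *Serpina3m* calls were lost without hSRY-OFF replicate 1 or 3, and that of *Serpina3m* also without hSRY-ON replicate 1 (adjusted p 0.0561 to 0.0761). Without hSRY-OFF replicate 1, and without hSRY-OFF replicate 3, 0 of these probes were called higher, and 2 were without hSRY-ON replicate 1 or with no filter. *Cfb*, complement factor B, was lower by -0.96 ± 0.15 (SE, adjusted p 0.00312, and -0.59 with no background correction), as was *Saa3*. The probe of *Fgb* was not tested. *Fga*, *Fgg*, *Lcn2*, *Lbp*, *Serpina3n*, *C3* and *Cp*, singled out as widely used markers of the response, did not pass the test, with differences from -0.33 to 0.58.

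The negative acute phase proteins, whose secretion goes down in the response, had 6 of 15 tested probes lower and 0 higher, with a median difference of -0.40. That is 40% called, while among all tested probes 17.3% were lower and 33.1% were called in either direction. With any hSRY-OFF array left out 4 were lower. *Serpina6*, which carries corticosteroids in plasma, went from 1596, 2082 and 1817 to 152, 136 and 131 and was detected on 0 hSRY-ON arrays. It was at least 31.5-fold lower between group means with the main background correction (adjusted p 7.29e-06). The fitted difference of -6.01 became -3.66 with no background correction (adjusted p 1.71e-05), where that bound does not hold. *Igfals*, the acid labile subunit that stabilises IGF1 in plasma, was lower by -3.40 ± 0.36 (SE, adjusted p 0.000758), and *Igf1* by -1.95 and -2.51 with its 2 probes. The *Alb* probe was lower by -1.11 (adjusted p 0.00852, and -0.64 with no background correction) at intensities of 202 to 448 over the 6 arrays. That is dim for an abundant liver transcript, and far below the *Hp* and *Hpx* probes. Whether the probe reads the bulk of albumin RNA was not tested, so its call is no measure of the albumin level. *Ttr*, transthyretin, was lower by -0.46 (adjusted p 0.0174), which did not pass when any hSRY-OFF array was left out (adjusted p 0.0556 to 0.058). Transferrin (*Trf*), the fetuins and apolipoprotein A1 did not pass the test, with differences of -0.12 to 0.22 over *Trf*, *Ahsg*, *Fetub*, *Rbp4* and *Apoa1*.

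**Figure D4:**
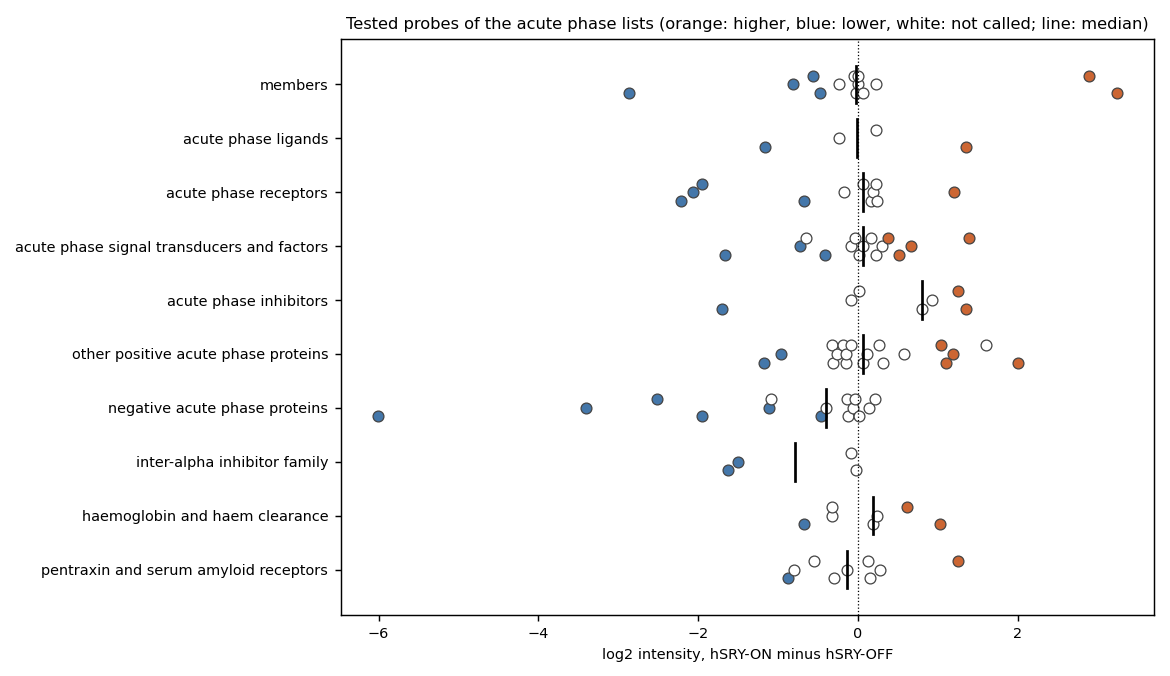
Difference in log2 intensity, hSRY-ON minus hSRY-OFF (x axis), of every tested probe of the members and of 9 lists of the acute phase pathway; orange points were called higher, blue points lower, white points not called, and black lines mark the median of each list. The members hold both the highest points (*Orm1* and *Orm2*) and a low one (*Saa4*) around a median of -0.02. The negative acute phase proteins have 6 blue points and 0 orange ones, or 40% called against 33.1% of all tested probes.

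Downstream of haptoglobin and hemopexin, *Hmox1*, the haem-degrading enzyme, was higher by 1.03 ± 0.17 (SE, adjusted p 0.00452), from 725, 835 and 634 to 1639, 1063 and 1314. *Fth1*, the ferritin heavy chain, was higher with 1 of its 2 probes by 0.61 ± 0.12 (SE, adjusted p 0.00743) and by 0.24 with the other (adjusted p 0.135). Both probes of *Cd163*, the haptoglobin-haemoglobin receptor, were detected on 0 arrays. *Lrp1*, the hemopexin receptor, was lower by -0.67 (adjusted p 0.0441), which held in 2 of 15 alternatives and was -0.21 with no background correction. Of 9 tested probes of pentraxin and serum amyloid receptors 1 was higher (*Ager*) and 1 was lower (*Tlr2*). That is 22.2% called, against 33.1% of all tested probes. The call of *Ager* was lost without hSRY-OFF replicate 1 or 2. That of *Tlr2* was lost without hSRY-OFF replicate 2 or 3 or hSRY-ON replicate 1 (adjusted p 0.0507 to 0.0708 over both genes).

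Cell type markers are given beside these results, against 33.1% called among all tested probes. Of 8 tested hepatocyte probes 4 were lower, the dim *Alb* probe among them, and 0 were higher. Summed intensities were 51550 to 57520 in hSRY-OFF and 37680 to 65100 in hSRY-ON livers, and *Tat*, a late marker, was detected on 0 arrays. Of 9 Kupffer cell probes 4 were lower and 1 higher (sums 6969 to 11410 against 5922 to 6393), and of the defining markers *Cd5l* was detected on 0 arrays. All 4 tested lymphocyte probes were lower (1755 to 2133 against 1163 to 1369), with *Ms4a1* at 0 arrays. Of 10 neutrophil probes 0 were called with limma (50510 to 57190 against 33980 to 83830), 1 had an unadjusted p under 0.05, and 6 were called lower without hSRY-ON replicate 3. Leaving out hSRY-OFF replicate 1 or 2 left 2 hepatocyte probes lower, and 2 hepatocyte probes were higher without hSRY-ON replicate 3 or with array weights. Kupffer cell probes called lower numbered 2 without hSRY-OFF replicate 1 or hSRY-ON replicate 1 and 1 without hSRY-OFF replicate 2, and the Kupffer cell probe called higher was lost with each of the 6 arrays left out. Stellate cell probes had 5 of 9 higher and 1 lower (3822 to 5354 against 12390 to 18020), 4 of the 5 from *Acta2*, and 0 were lower without hSRY-OFF replicate 1 or 2. Endothelial probes had 3 of 6 higher and 1 lower (8005 to 12030 against 6946 to 9223), with *Kdr* at 0 arrays, and the lower call was lost with every array left out but hSRY-ON replicate 2. Of 6 erythroid probes 1 was higher (66860 to 80320 against 81770 to 92970). The higher erythroid probes numbered 4 without hSRY-OFF replicate 3, 2 without hSRY-ON replicate 2, 3 with the replicate block or array weights and 0 without hSRY-OFF replicate 1 or 2. Of the biliary markers, with *Krt19* and *Sox9* at 0 arrays, 1 probe was tested and not called (622 to 754 against 652 to 693). The part of these cell types in the differences of the acute phase genes was not tested. The 6 arrays detected between 10318 and 10762 probes each, and their median intensities lay between 147 and 165.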

How the data were processed

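Liver RNA of 3 hSRY-OFF and 3 hSRY-ON pups was hybridised to Illumina MouseRef-8 BeadChips, and groups were taken from the labels. The authors deposited a table of mean bead intensity on a linear scale, neither background-subtracted nor normalised, and the deposited detection p-value of each probe. Genome build and probe sequences are not given in the sources used here. The study's methods name TCC, a package for count data, and the submitters' processing notes name limma. Counts were not assumed here. Using limma 3.58.1 in R 4.3.3, background was removed (function nec with an offset of 16), and intensities were quantile normalised and turned to log2. A probe was tested if its detection p was below 0.01 in 3 or more of the 6 livers, whatever their group, which kept 10734 probes. These were fitted with lmFit and eBayes, and two-sided p-values were adjusted over all of them (Benjamini-Hochberg, threshold 0.05). Probes of a gene were tested separately. A fold against a group that never detected the probe is a bound, in which each dim array was given its lowest detected signal or the signal of the probe, whichever was higher. Such a bound is for the group means with the main background correction and need not hold in the other settings. The procedure was run on simulated data with few changed probes. How it behaves with as large a changed share as seen here was not tested. With 3 arrays per group, their number limits the precision.

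Members, the 17 other gene lists (150 genes, matched also through older RefSeq names), motifs and tests were chosen with earlier results of these data known. Named were all member probes, up to 4 called genes per list with the smallest p, and *Il6*, *Il1b*, *Tnf*, *Stat3*, *Socs3*, *Cebpb*, *Cebpd*, *Alb*, *Ttr* and *Saa3* whatever their values. Other genes were named for their role or after their values were seen. Promoters were aligned with Biopython 1.88. Alternatives covered the background correction, offset, scaling, detection filter, variance model, array weights, a replicate block, a stricter threshold and each array left out.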

Additional observations from a re-analysis of the deposited data

How the results depend on the processing

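With 3 arrays per group, the count of higher member probes, 2, became 1 with no background correction, with normexp and an offset of 50 without detection p-values, with nec and an offset of 50, with no filter and at an adjusted p under 0.01, since *Orm2* was no longer called. With each array left out it was 1 in every case. Lower member probes numbered 3 to 4 with each array left out. Over all tested probes, 693 were higher and 972 lower at an adjusted p under 0.01, and with each array left out 856 to 1822 were higher and 965 to 2125 lower. Leaving out hSRY-OFF replicate 1 gave 856 and 965, leaving out hSRY-OFF replicate 2 gave 950 and 1009, and 1075 were higher if hSRY-ON replicate 1 was left out. Of the probes on the 9 pathway lists 15 were higher and 21 lower. These counts were 7 and 16 at an adjusted p under 0.01, and 8 to 17 and 15 to 21 with each array left out, the lowest being 8 higher for hSRY-OFF replicate 1 and 9 for hSRY-OFF replicate 3. The hSRY-OFF and hSRY-ON arrays of the same number shared only that number, since the correlations of their deviations from the group means were 0.02, 0.10 and 0.05. With the replicate block 2 member probes were higher and 3 lower, and 1565 and 1645 of all probes. The probe ILMN_2797276 of *Itih4* then had an adjusted p of 0.05 after rounding and was not called.

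Some of the differences that did not pass the test changed sign, but not those of *Crp* and *Hpx* ILMN_2830333. That of *Apcs* became -0.07 with median scaling and -0.08 without hSRY-ON replicate 2 (range with each array left out -0.08 to 0.17). That of *Hp* ILMN_2944824 became 0.02 with median scaling, 0.01 with array weights, 0.03 without hSRY-OFF replicate 2 and 0.02 without hSRY-ON replicate 3 (range -0.05 to 0.03), and that of *Hp* ILMN_2668509 became 0.06 with array weights and 0.12 without hSRY-ON replicate 3 (range -0.14 to 0.12). *Il1b* went to -0.22 without hSRY-OFF replicate 1 and -0.32 without hSRY-ON replicate 2 (range -0.32 to 0.77). Without the latter array 2 *Stat3* probes went to -0.03 (ILMN_2589790, range -0.03 to 0.41) and -0.12 (ILMN_3096144, range -0.12 to 0.29). The cause was not tested. None of the 6 called member probes changed direction in any alternative in which it was tested. The median over all probes moved from 0.02 to -0.04 with median scaling.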
